A study of Mus musculus with 4 samples.

Results

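In sections of inflamed mouse pancreas, enzyme-poor spots are those that gave the smallest share of their RNA counts to 5 digestive enzyme genes. The genes were *Prss2* (a trypsinogen), *Cpa1* (carboxypeptidase A1), *Ctrb1* (chymotrypsinogen B1), *Cela3b* (an elastase-like protease) and *Pnlip* (pancreatic lipase). In each section, spots with at least 500 unique molecular identifiers (UMIs, each one a captured molecule) were ordered by the summed UMIs of these genes over all UMIs of the spot. The lowest 25% were taken, and spots with more than 2 UMIs of *Ins1* plus *Ins2*, or with any UMI of *Adipoq* (fat) or *Col3a1* (fibrous matrix), were removed. This left 3250 of the 27040 spots with at least 500 UMIs, out of 56869 listed. They were described against the other spots of the same section. The spots were thus chosen by the measured UMIs of these 5 genes and the exclusion genes, so the levels of the 5 and those of the other secreted digestive enzymes are given as a description, with no test.

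The 4 sections came from 4 C57Bl/6 mice of 4 weeks of age. All carried *Pdx1-Cre*, which is active in the pancreatic epithelium, and all received caerulein, an analogue of cholecystokinin, by 8 hourly intraperitoneal injections of 50 μg/kg. The animals were fasted for 12 h beforehand and collected 18 h after the first injection. Sections Ehmt2+/+ 1 and 2 carried wild-type *Ehmt2*, and Ehmt2 fl/fl 1 and 2 carried the floxed alleles that Cre inactivates in epithelium, so that immune and stromal cells in the same spots keep the gene. No section without caerulein was analysed here. Each section is 1 animal, so n is 2 per genotype. A spot covers several cells, so a lower level in a spot may be fewer cells of a type or less RNA per cell, and these cannot be told apart.

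Acinar cells make up most of the exocrine pancreas and store digestive proenzymes in granules that cholecystokinin releases. When they are injured they are known to lose enzyme and granule expression, to raise keratins and stress genes, and in part to take on duct-like features, a change called acinar-to-ductal metaplasia. Spots can also be poor in enzymes because other cells, such as macrophages, lymphocytes, vessels or nerves, take up their area. The comparisons below ask which genes accompany a low enzyme share, and whether that differs with *Ehmt2*, which encodes a histone H3 lysine 9 methyltransferase.

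Several properties of the sections bear on every result. Spots with at least 500 UMIs numbered 6147, 7908, 6497 and 6488 in Ehmt2+/+ 1, Ehmt2+/+ 2, Ehmt2 fl/fl 1 and Ehmt2 fl/fl 2, the order used for all lists of 4 values. Median UMIs per spot were 1262, 656, 770 and 806.5 in enzyme-poor spots and 6786, 933, 1014 and 1160 in the other spots, so Ehmt2+/+ 1 stood apart in depth. The alignment files mark 5818, 9915, 7549 and 7653 positions as tissue without naming their barcodes. In Ehmt2+/+ 1 the spots with at least 500 UMIs outnumbered the marked positions by 329, so at least 329 of them lay off the marked tissue. How many of these were enzyme-poor cannot be told. The enzyme-poor spots of that section may thus include positions off the tissue. All 4 sections share 13898 barcodes, because the arrays carry the same barcode set. *Ehmt2* itself gave 34, 3, 5 and 6 UMIs in enzyme-poor spots, or 57.4, 4.9, 9.99 and 11.3 UMIs per 1000000. The fl/fl values lay between those of the wild-type sections, but counts of 3, 5 and 6 UMIs are too few to order the sections. By GENCODE M21, an annotation of the same mm10 build, *Ehmt2* lies on chromosome 17 from 34898469 to 34914052, *Ctrb1* on chromosome 8 from 111686519 to 111691010 and *Cpa1* on chromosome 6 from 30639218 to 30645363. *Prss2* lies on chromosome 6 from 41521787 to 41525079, *Cela3b* on chromosome 4 from 137420999 to 137430540 and *Pnlip* on chromosome 19 from 58652498 to 58681788. Where the *Ehmt2* probes lie relative to the floxed exons is not given in the sources used here. For this and for the low counts, the *Ehmt2* values do not check the genotype.

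Low enzyme share was relative to the section. The largest share still inside the lowest 25% was 41.1, 31.6, 9.47 and 7.47% of UMIs, and the smallest share outside it was 41.1, 31.6, 9.47 and 7.47%. Enzyme-poor spots had a median share of 38.4, 27.2, 5.97 and 4.37%, against 43.5, 37.2, 16.3 and 14.7% in the other spots. The median enzyme-poor spot of either Ehmt2+/+ section thus had a larger share than the median other spot of either Ehmt2 fl/fl section. The UMIs of spots with fewer than 100 UMIs, which include positions off the tissue, held the 5 genes at 39, 28.6, 11.6 and 9.91%. That level was close to the median of enzyme-poor spots in the Ehmt2+/+ sections and above it in the Ehmt2 fl/fl sections. With 1 limit for all sections, taken over all spots together, 0, 108, 1253 and 1549 spots would have been chosen.

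**Figure D1:**
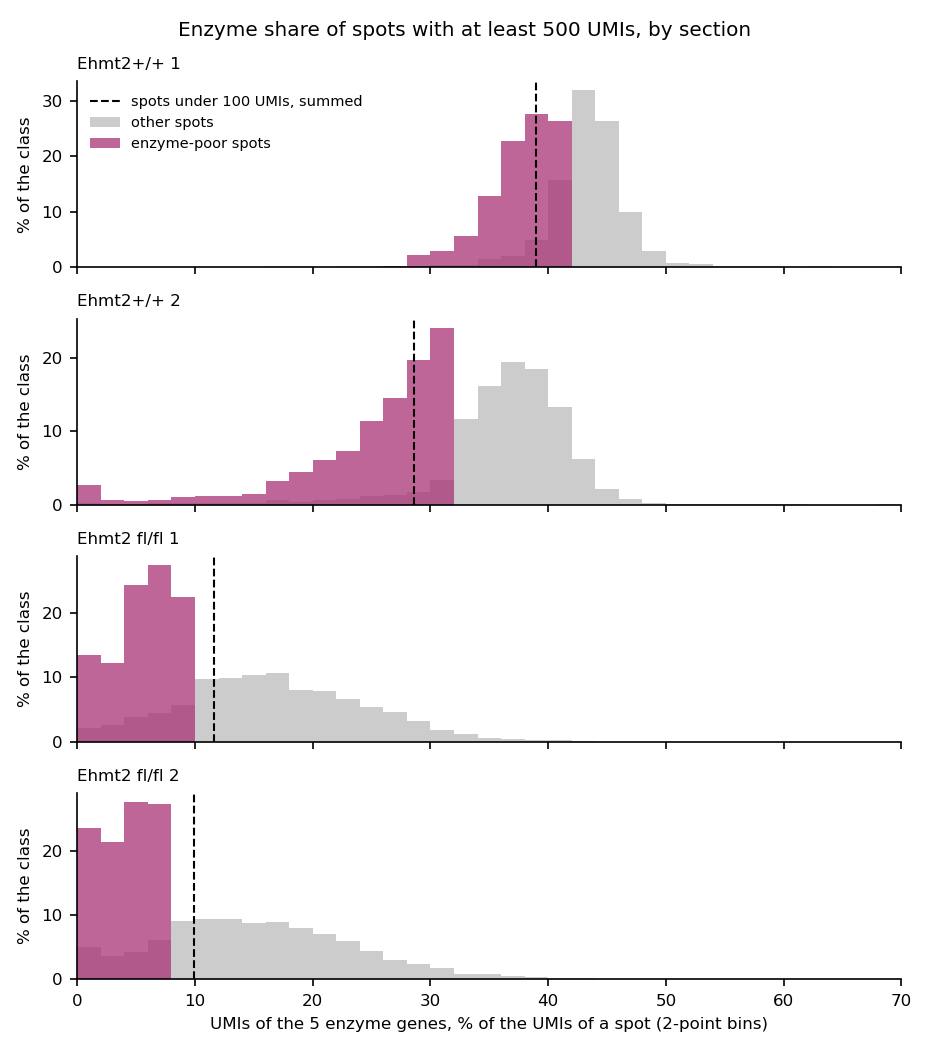
Share of a spot's UMIs from the 5 enzyme genes (x axis, percent) in each section, as the percentage of enzyme-poor spots (purple) and of other spots (grey) in bins of 2 points; some other spots lie below the limit because they were removed for islet, fat or matrix counts. The dashed line is the share in the summed spots under 100 UMIs, at 39, 28.6, 11.6 and 9.91% from top to bottom.

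The number of enzyme-poor spots was 596, 1355, 659 and 640, which is 38.8, 68.5, 40.6 and 39.5% of the lowest 25% of each section. *Col3a1* removed the most spots, 881, 491, 879 and 917, ahead of the insulin genes with 245, 149, 155 and 63 and *Adipoq* with 7, 27, 40 and 71. A requirement of 0 UMIs is met more often by shallow spots: of the spots outside the lowest 25%, 31, 81, 44.3 and 49.7% met the same requirements. When the rule was applied to spots thinned at random to 500 UMIs each, it chose 1177, 1468, 912 and 940 spots and kept 79, 92.1, 94.5 and 93.9% of the original ones. In Ehmt2+/+ 1 the shared spots numbered 471 of the 1177 chosen after thinning, so there the set depended most on depth.

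*Ctrb1* was the most abundant of the 5 genes, and the score mostly followed it. It held 30.8, 20.8, 4.68 and 3.54% of the UMIs of enzyme-poor spots and 35.4, 30.9, 15.3 and 14.8% of those of other spots. The difference was small beside the total in Ehmt2+/+ 1 and several-fold in both fl/fl sections. *Prss2* held 1.08, 0.446, 0.0865 and 0.0496% against 0.984, 0.678, 0.257 and 0.189%, and so was not lower in the enzyme-poor spots of Ehmt2+/+ 1. *Pnlip* and *Cpa1* were likewise slightly above the other spots in that section and below them in the other 3. The 37 digestive enzyme genes in the files, which include *Cela2a*, *Ctrl* and *Cel* beside the 5, together took 59.7, 37.1, 7.65 and 5.79% of UMIs in enzyme-poor spots and 64, 55.5, 23.6 and 22.8% in other spots. These genes and the 4 exclusion genes, 41 in all, were left out of the totals below, so every level is given as UMIs per 1000000 UMIs of the remaining genes (CPM).

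Acinar marks beyond the enzymes were found in most enzyme-poor spots of the Ehmt2+/+ sections and in fewer of those of the Ehmt2 fl/fl sections. In Ehmt2+/+ 1 the digestive enzymes took 59.7% of UMIs in enzyme-poor spots. They took 57.3% in the spots under 100 UMIs, which include positions off the tissue. The part of RNA found off the tissue in these marks was not tested. In spots thinned to 500 UMIs, at least 3 UMIs of 15 acinar granule and receptor genes were found in 99.5%, 88.4%, 25.2% and 13.4% of enzyme-poor spots and in 99.6%, 97.2%, 65.3% and 54.9% of other spots. For Ehmt2 fl/fl 2 the 95% exact interval 10.9% to 16.3% of enzyme-poor spots did not reach that of other spots, which ran from 53.6% to 56.2%. The intervals cover counting error over spots only. The 500 UMIs of a thinned spot, here and below, included the digestive enzymes. In the fl/fl sections most enzyme-poor spots thus fell short of this acinar level, and markers of macrophages, described below, were frequent there. The spots are therefore named here by the rule, as enzyme-poor, and not as a cell type.

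The UMIs of each class were summed per section, and 19580 genes outside the rule were fitted with edgeR (quasi-likelihood test, the section as a block). The fit called 12.3% of genes in either direction, with 138 genes higher in enzyme-poor spots, 0.705% of those fitted, and 2271 lower, 11.6%. Both classes come from the same sections and were divided by counts of those same spots, so these calls describe the division and no adjusted p is given for it. The split of directions also rested on the scaling. TMM factors, which set the typical gene to no change, lowered enzyme-poor against other spots by 0.72, 0.45, 0.20 and 0.23 on the log2 scale in the 4 sections. With plain library sizes the median of all genes moved from -0.04 to 0.30, and 1514 genes (7.73%) were called higher and 241 (1.23%) lower. All 138 genes called higher with TMM were also called higher without it, and 241 of the 2271 called lower were also called lower without it. By CPM 21.4% of the genes were higher in all 4 sections and 4.55% lower, and on the TMM scale 5.15% were higher and 21.0% lower. Keeping the enzymes in the library sizes moved the split further, to 9442 genes higher and 58 lower. Levels below are in CPM over the non-enzyme UMIs, without TMM, and a direction is given by the number of sections that show it. Of 39 genes checked with counts in both classes of Ehmt2+/+ 1, 26 had the opposite direction there on the TMM scale or with enzymes in the totals. In Ehmt2+/+ 2, Ehmt2 fl/fl 1 and Ehmt2 fl/fl 2 these were 5 of 40, 2 of 40 and 1 of 39. The genes checked were *Ehmt2* and those named below between the classes. Genes named only in the genotype comparisons were not among them. The directions of single genes in Ehmt2+/+ 1 below therefore hold by CPM.

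By CPM, 7 of 26 gene lists had a lower summed level in enzyme-poor spots of all 4 sections, 9 had a higher one, and 10 were mixed. The lower lists were acinar granule and receptor genes, acinar transcription factors, endoplasmic reticulum folding genes, amino acid and one-carbon metabolism, metallothionein, iron and oxidative genes, Reg proteins, and islet genes. In that order, 7 of 15, 1 of 10, 8 of 22 and 4 of 12 genes were lower in all 4 sections. For the remaining lists these were 2 of 12, 6 of 7 and 5 of 15, beside 4.55% of all genes fitted. On the TMM scale the sums of the same 7 lists were lower in all 4, among 12 lists. With enzymes kept in the totals only the islet list was. The 9 higher lists were markers of macrophages, lymphoid cells, neutrophils, fat, mesothelium, red blood cells and Schwann cells, together with chemokines and cell cycle genes. In that order, 9 of 12, 10 of 20, 1 of 8 and 5 of 9 genes were higher in all 4 sections. For the remaining lists these were 4 of 5, 1 of 5, 2 of 6, 4 of 12 and 1 of 12. Over all genes fitted the share was 21.4%. A higher sum thus does not describe most members of every list. In Ehmt2+/+ 1, 5 of 8 neutrophil genes were at 0 in enzyme-poor spots. With enzymes in the totals the sums of these 9 lists were again higher in all 4 sections, among 14 lists. On the TMM scale only mesothelium was. The islet list is tied to the rule, since spots with insulin counts were removed. A general background moved with the classes: 1135 olfactory receptor genes, which a pancreas is not known to use, summed to 1093, 18838, 17165 and 23388 CPM in enzyme-poor spots and 864, 11312, 12337 and 17977 in other spots. That was higher in enzyme-poor spots of all 4 sections, and its part in the higher lists was not tested.

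**Figure D2:**
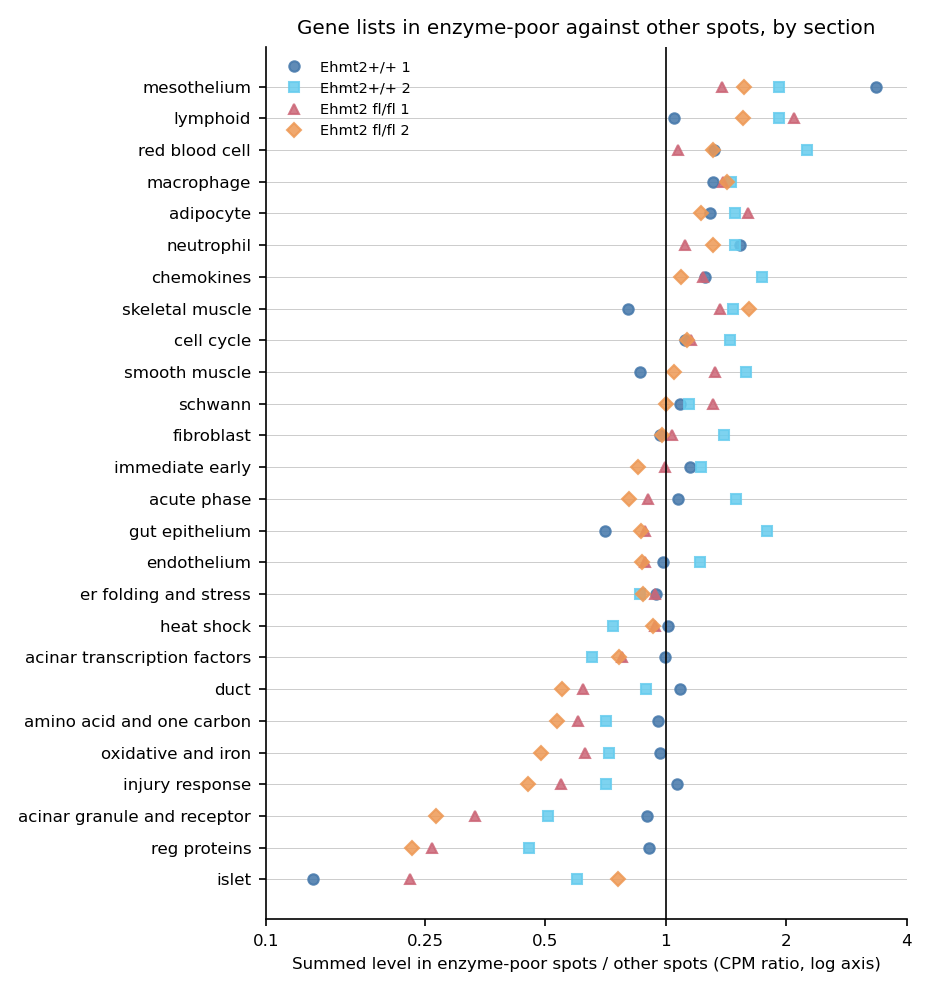
Summed level of each of 26 gene lists in enzyme-poor spots divided by that in other spots (CPM ratio, x axis, log scale), with 1 symbol per section. Reg protein and acinar granule genes had ratios below 1 in all 4 sections and lay lowest in the Ehmt2 fl/fl sections, and macrophage and lymphoid markers had ratios above 1 in all 4; in Ehmt2+/+ 1 the macrophage and lymphoid ratios turn below 1 on the TMM scale, and the granule and Reg ratios turn above 1 with enzymes in the totals.

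Secretory granule genes were lower where the enzymes were low. The 15 granule and receptor genes summed to 55155, 19500, 3443 and 2400 CPM in enzyme-poor spots and to 61297, 38418, 10356 and 9029 in other spots, so the ratio was 0.9, 0.508, 0.332 and 0.266. The gap was small in Ehmt2+/+ 1, where the ratio turned to 1.01 with enzymes in the totals, and large in both fl/fl sections on every scale. In the fit 8 of the 15 were called lower and 0 higher, with a median log2 difference of -0.79 beside -0.04 over all genes. Of all genes fitted 11.6% were called lower. *Zg16*, a zymogen granule protein, was at 23555, 10689, 1216 and 853 CPM in enzyme-poor spots and 28599, 22213, 4101 and 3606 in other spots. It was lower in all 4 sections. *Gp2*, the main granule membrane glycoprotein, was at 15974, 3561, 709 and 532 against 16406, 6744, 2115 and 2311, lower in all 4 as well. *Spink1*, the trypsin inhibitor of acinar cells, was at 8193, 1675, 515 and 242 against 8063, 2803, 1929 and 1066, and here Ehmt2+/+ 1 showed no lower level. *Cuzd1*, another granule protein, was lower in all 4 sections at 4423, 2188, 355 and 249 against 4899, 4412, 1019 and 900.3.

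Factors that set acinar identity had smaller gaps than granule genes. Their 10 genes summed to 1865, 696, 385 and 360.4 CPM in enzyme-poor spots and 1870, 1066, 495 and 473 in other spots. *Xbp1*, which drives secretory capacity, was at 1132, 296, 144 and 106 against 1123, 545, 206 and 187, lower in all sections but Ehmt2+/+ 1. *Ptf1a*, a master regulator of acinar fate, was at 84.4, 37.6, 39.9 and 26.4 against 76.2, 51.9, 39.9 and 32.9, where the sections did not point one way. *Rbpjl*, its acinar partner, was at 285, 73.5, 9.99 and 0 against 265, 122, 21.9 and 17.8 and had 0 UMIs in the enzyme-poor spots of Ehmt2 fl/fl 2. The fit called 6 of 10 lower, with a median of -0.61, and without TMM 2 of 10 with a median of -0.15. The shares of all genes called lower were 11.6% and 1.23%.

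Folding and stress genes of the endoplasmic reticulum, the site where enzymes are made, were nearly level between the classes. They summed to 8436, 5910, 9972 and 7519 CPM against 8922, 6869, 10616 and 8580, ratios of 0.946, 0.86, 0.939 and 0.876. Of 22 genes 16 were called lower with TMM and 5 without it, and the median moved from -0.54 to -0.14. Of all genes fitted, 11.6% were called lower with TMM and 1.23% without it. *Hspa5* (BiP), the main chaperone, was at 979.6, 737, 1278 and 911 against 964, 851, 1558 and 1211. With enzymes in the totals the list was higher in all 4 sections. *Pdia2*, a disulfide isomerase of the pancreas, was at 1111, 271, 73.9 and 43.4 against 1191, 541, 184 and 157. Amino acid and one-carbon genes, which feed protein synthesis, summed to 3616, 1770, 909 and 743 against 3790, 2498, 1504 and 1393. *Asns*, asparagine synthetase, was lower in all 4 sections at 1270, 655, 204 and 162 against 1400, 1006, 652 and 542, and 7 of the 12 genes were called lower (4 without TMM).

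Reg proteins, secreted lectins that acinar cells make on injury, were also lower where the enzymes were low. The 7 genes summed to 94160, 40154, 4537 and 3032 CPM in enzyme-poor spots and 103580, 88328, 17437 and 13095 in other spots, lower in all 4 sections by CPM and by TMM, with the ratio in Ehmt2+/+ 1 at 1.02 with enzymes in the totals. In the fit 6 of 7 were called lower under both scalings, with medians of -1.45 and -1.01, beside 11.6% and 1.23% of all genes. *Reg1* was at 70115, 33769, 3762 and 2566 CPM against 77426, 74666, 14559 and 11358. *Reg3b* was at 10584, 3254, 269.6 and 136 against 11298, 7611, 1033 and 592. Both were lower in all 4 sections, by the least in Ehmt2+/+ 1. Both fl/fl sections had larger gaps than both Ehmt2+/+ sections.

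The summed levels of injury and duct genes were lower in the enzyme-poor spots of both Ehmt2 fl/fl sections. The 27 injury response genes summed to 77842, 28613, 17437 and 11485 CPM against 72885, 40298, 31920 and 25449, above the other spots only in Ehmt2+/+ 1. On the TMM scale that section was lower too, and with enzymes in the totals both Ehmt2+/+ sections were higher. *Clu* (clusterin) was at 40765, 16424, 6880 and 4096 against 40350, 24405, 16530 and 12361. *Nupr1*, a stress-induced regulator, was at 23292, 4001, 797 and 583 against 19912, 6067, 2973 and 3020. Both were level or higher in Ehmt2+/+ 1 and lower in the other 3 sections. The keratins *Krt18* and *Krt8*, which duct and acinar cells share, were at 4660, 1508, 519 and 415 against 4421, 2408, 1228 and 1062 and at 3143, 1713, 539 and 536 against 2936, 2334, 1034 and 1533, with the same pattern. The fit called 17 of 27 lower and 0 higher (6 and 1 without TMM). Of all genes fitted, 11.6% were called lower with TMM and 1.23% without it. By CPM 21 and 22 of the 27 were lower in the fl/fl sections. In all 4 sections 2 of the 27 were lower and 3 higher, beside 4.55% and 21.4% of all genes.

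The 14 duct genes summed to 2148, 2290, 1783 and 1372 CPM against 1980, 2567, 2873 and 2489, slightly above the other spots in Ehmt2+/+ 1 and below them in the other 3 sections. On the TMM scale they were lower in all 4, and with enzymes in the totals they were higher in both Ehmt2+/+ sections. *Epcam*, an epithelial adhesion protein, was at 1437, 1424, 1094 and 675 against 1265, 1679, 1969 and 1632. *Krt19*, the usual duct keratin, was at 498, 441, 102 and 77.4 against 467, 581, 228 and 179. *Krt7*, also of duct cells, was at 109.8, 129, 208 and 177 against 119.7, 94.4, 256 and 266, lower in 3 sections and higher in Ehmt2+/+ 2. By CPM 3 of the 14 were higher and 11 lower in Ehmt2 fl/fl 1, and 8 were higher and 6 lower in Ehmt2 fl/fl 2. Of the 14 genes, 4 were called lower (3 without TMM) and 0 higher, beside 11.6% of all genes called lower (1.23% without TMM). Enzyme-poor spots of the fl/fl sections thus had lower sums of granule, Reg, injury and duct genes than the other spots of their section on each of the 3 scales. For duct genes this holds for the sum, of which *Epcam* alone made up 1094 of 1783 and 675 of 1372 CPM in those enzyme-poor spots. It does not hold for most single duct genes in Ehmt2 fl/fl 2 by CPM.

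Macrophage markers were higher by CPM in the enzyme-poor spots of every section, and on the TMM scale in 3, since the ratio in Ehmt2+/+ 1 turned to 0.798. The 12 genes summed to 571, 837, 3790 and 2411 CPM in enzyme-poor spots and 436, 574, 2729 and 1693 in other spots, ratios of 1.31, 1.46, 1.39 and 1.42. By CPM 9 of 12 were higher in all 4 sections, beside 21.4% of all genes fitted. The olfactory receptor background was also higher in all 4, at 1093, 18838, 17165 and 23388 CPM against 864, 11312, 12337 and 17977. Its part in the macrophage levels was not tested, so the macrophage ratios are not read as a gap beyond the background. *Ctss*, a lysosomal protease of macrophages, was at 137, 131, 975 and 739.6 against 77.3, 84.5, 728 and 481, and *C1qa*, a complement subunit they make, at 62.5, 94.8, 363 and 272 against 48.2, 61.5, 259 and 168. *Cd68* was at 77.7, 75.2, 339.5 and 211 against 66.5, 51, 220.0 and 152. Each was higher in all 4 sections by CPM. With TMM edgeR called 0 of 12 (2 higher and 1 lower at an unadjusted p below 0.05) and DESeq2 called 1 higher. Without TMM edgeR called 7 of 12 higher, beside 7.73% of all genes, with a median of 0.56 beside 0.30 over all genes. In spots thinned to 500 UMIs, 0.336%, 0.443%, 26.1% and 12.3% of enzyme-poor spots and 0.036%, 0.168%, 11.7% and 4.24% of other spots held at least 3 macrophage UMIs. For Ehmt2 fl/fl 1 the enzyme-poor share had a 95% exact interval 22.8% to 29.6%, against 10.9% to 12.5% for other spots. These intervals cover counting error over the spots of that section only. Such spots were under 1% of both classes in the Ehmt2+/+ sections. The 500 UMIs included the digestive enzymes, which took 59.7, 37.1, 7.65 and 5.79% of UMIs in enzyme-poor spots. In other spots they took 64, 55.5, 23.6 and 22.8%. A high enzyme share leaves fewer of the 500 UMIs for macrophage genes, so these shares of spots are tied to the rule. The part of the enzymes in them was not tested.

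Lymphoid markers were higher in the enzyme-poor spots of 3 sections and level in Ehmt2+/+ 1. The ratio in Ehmt2+/+ 1 was 1.05 by CPM and 0.64 on the TMM scale. The 20 genes summed to 115, 724, 1460 and 1287 CPM against 109, 377, 697 and 825. *Cd79a*, part of the B cell receptor, was at 1.69, 68.6, 304 and 117 against 1.72, 25, 49 and 52.6, and *Ighm*, its immunoglobulin heavy chain, at 0, 57.2, 244 and 272 against 3.05, 19.1, 38 and 125. Neither was higher in Ehmt2+/+ 1, where *Ighm* had 0 UMIs in enzyme-poor spots. *Ptprc* (CD45) was at 27, 80.1, 224 and 213 against 32.7, 35.8, 159 and 139.8. The fit called *Cd79a* and *Ighm* higher, 2 of 20, and 8 without TMM. The shares of all genes called higher were 0.705% and 7.73%. Spots with 3 or more lymphoid UMIs in 500, enzyme UMIs included, made up 0%, 0.664%, 4.55% and 3.12% of enzyme-poor spots and 0%, 0.0305%, 0.582% and 1.09% of other spots. Without these spots in either class the fit called 132 genes higher and 2185 lower.

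Of the 25 genes called higher with at least 50 CPM in either class, 9 were higher in all 4 sections on the TMM scale. *Slpi*, a protease inhibitor of epithelium and myeloid cells, was at 105, 311, 789 and 623 CPM against 29.2, 94, 458 and 447. *Cfp* (properdin), a complement factor of myeloid cells, was at 81.1, 116, 643 and 547 against 45.4, 51, 343 and 279. *Maf*, a transcription factor of tissue macrophages and lymphocytes, was at 101, 168, 655 and 787 against 51.5, 107, 437 and 406. *Cd5l*, secreted by tissue macrophages, was at 6.76, 62.1, 152 and 123 against 3.45, 28.3, 56.8 and 54.6. Their levels were above the other spots in every section, although the *Cd5l* level in Ehmt2+/+ 1 rests on 4 UMIs. The 5 others were *Car3* and *Cfd*, both of fat, and *Cmah*, *Pira2* and *Ccdc88b*. *Car3* was at 33.8, 134, 204 and 287 against 8.03, 54.9, 70.5 and 211, while *Adipoq* was at 0 in enzyme-poor spots by the rule.

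**Figure D3:**
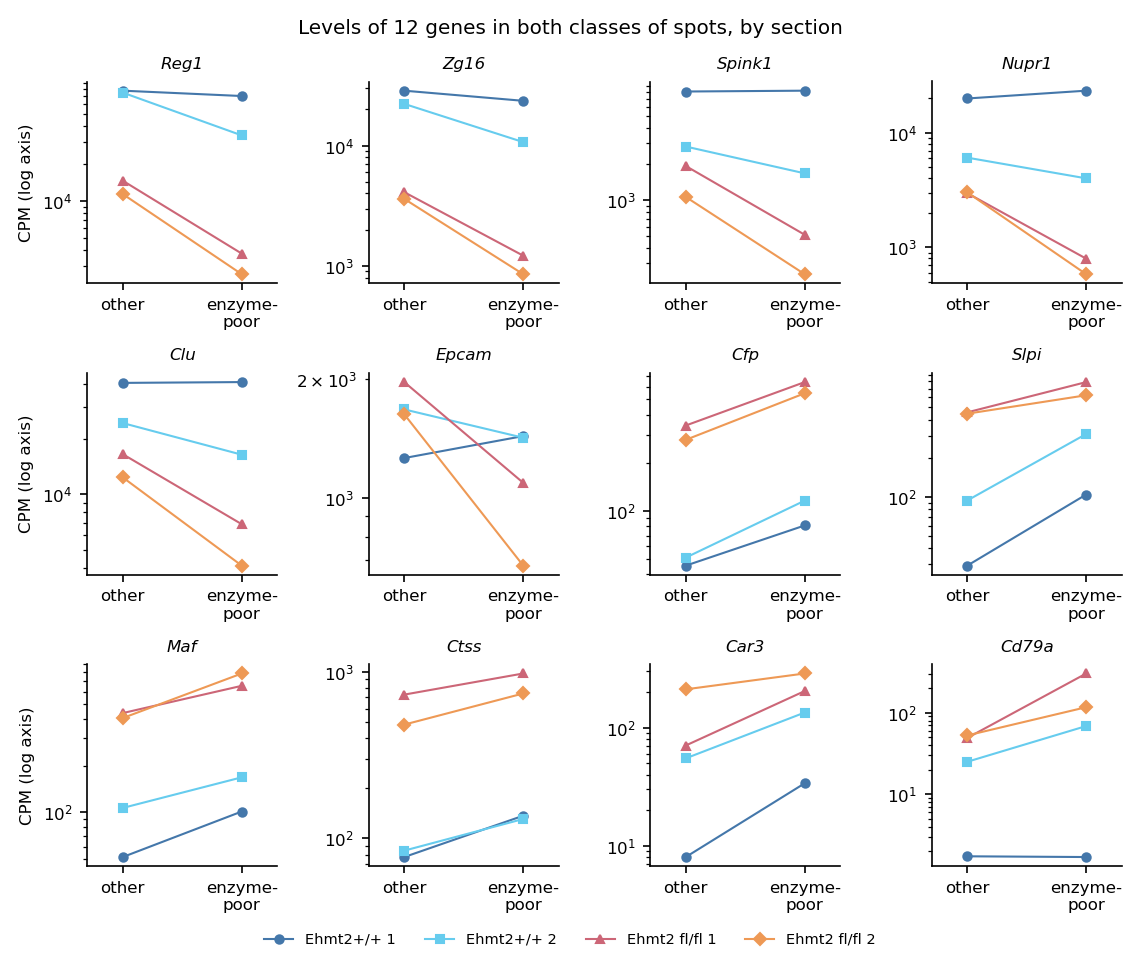
Levels of 12 genes in other and enzyme-poor spots (CPM, log axis), with 1 line per section. *Reg1* and *Zg16* were lower by CPM in enzyme-poor spots of each section, least in Ehmt2+/+ 1, while *Cfp*, *Slpi*, *Maf*, *Ctss* and *Car3* were higher in enzyme-poor spots of all 4 sections.

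Other lists gave smaller or mixed gaps. Chemokines and cytokines summed to 228, 548, 1056 and 658 CPM in enzyme-poor spots against 182, 315, 852 and 603 in other spots, higher in all 4 sections, with 0 of 12 called by edgeR (1 higher and 1 lower at an unadjusted p below 0.05) and by DESeq2, and 3 higher by edgeR without TMM. Acute phase genes summed to 353, 762, 2416 and 1796 CPM in enzyme-poor spots against 329, 509.9, 2683 and 2220 in other spots, higher in the Ehmt2+/+ and lower in the Ehmt2 fl/fl sections by CPM, with Ehmt2+/+ 1 also lower on the TMM scale. Of these, *Hp* (haptoglobin) was higher in all 4 sections, at 8.44, 55.6, 212 and 174 against 5.44, 30.2, 103 and 112, and *Il1rn*, the interleukin-1 receptor antagonist, was at 135, 199, 1070 and 677 against 114, 134, 1528 and 1106, with the 2 genotypes pointing opposite ways by CPM and Ehmt2+/+ 1 turning lower on the TMM scale. By CPM 8, 11, 10 and 8 of 13 acute phase genes were higher in enzyme-poor spots, so the lower sum of the fl/fl sections does not describe most members. Over all genes fitted, 21.4% were higher and 4.55% lower in all 4 sections by CPM. The counts are thus not read as particular to this list. With enzymes in the totals the acute phase ratio of Ehmt2 fl/fl 1 was 1.09. Immediate early genes summed to 1039, 1298, 2041 and 1576 CPM in enzyme-poor spots against 905, 1059, 2054 and 1847 in other spots, with the same split by CPM as the acute phase list, lower in all 4 sections on the TMM scale and higher in all 4 with enzymes in the totals. By CPM the ratio of Ehmt2 fl/fl 1 was 0.994, with 8 of its 12 genes higher. Heat shock genes summed to 1336, 1005, 919 and 657 CPM in enzyme-poor spots against 1323, 1365, 976 and 706 in other spots with no common direction by CPM, lower in all 4 sections on the TMM scale and higher in all 4 with enzymes in the totals. The metallothionein, iron and oxidative list summed to 16876, 8389, 5236 and 4742 CPM in enzyme-poor spots against 17500, 11609, 8336 and 9733 in other spots. It was led by *Mt1* at 11360, 5889, 2464 and 2638 against 12220, 8782, 5216 and 7126, and 5 of 12 were called lower (2 without TMM). Of all genes fitted, 11.6% were called lower with TMM, and 1.23% lower and 7.73% higher without it.

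Fibroblast genes other than *Col3a1* summed to 856, 1406, 2374 and 2136 CPM in enzyme-poor spots against 884, 1008, 2295 and 2186 in other spots, close to level by CPM except in Ehmt2+/+ 2, and higher in all 4 sections with enzymes in the totals. Since spots with *Col3a1* were removed, this list is tied to the rule. With other spots held to the same exclusions the fibroblast ratio was 1.36, 1.59, 1.23 and 1.17, higher in all 4 sections by CPM. *Col1a2*, a fibrillar collagen chain, was at 388, 729, 1360 and 1223 against 416, 460.3, 1251 and 1276. Endothelial genes summed to 301, 534, 703 and 579 CPM in enzyme-poor spots against 306, 439, 792 and 666 in other spots, with no common direction by CPM, lower in all 4 sections on the TMM scale and higher in all 4 with enzymes in the totals. Smooth muscle genes summed to 33.8, 179.8, 289.6 and 204 CPM in enzyme-poor spots against 39.3, 113, 218 and 195 in other spots and were lower by CPM only in Ehmt2+/+ 1, and on the TMM scale also in Ehmt2 fl/fl 2. Against other spots that met the exclusions their ratio was 1.40, 1.80, 1.67 and 1.25, higher in all 4 sections by CPM.

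Mesothelial genes, from the lining of the organ surface, summed to 43.9, 134, 126 and 177 CPM in enzyme-poor spots against 13.1, 69.7, 91.1 and 113 in other spots, and *Msln* was higher in all 4 sections at 28.7, 50.7, 49.9 and 64.2 against 8.22, 19.4, 29.3 and 37.2. Fat genes summed to 226, 564, 1006 and 1121 CPM in enzyme-poor spots against 176, 379, 626 and 917 in other spots. Mesothelium stayed higher in all 4 sections on every scale, while fat genes turned lower in Ehmt2+/+ 1 on the TMM scale. Neutrophil genes summed to 16.9, 139, 214 and 247 CPM in enzyme-poor spots against 11, 93, 191 and 188 in other spots, and no spot of either class held 3 of their UMIs in 500. Red blood cell genes summed to 214, 163, 122 and 285 CPM in enzyme-poor spots against 162, 72.7, 113 and 217 in other spots, Schwann cell genes to 154, 248, 279.6 and 228 CPM in enzyme-poor spots against 142, 217, 213 and 228 in other spots and cell cycle genes to 147, 474, 513 and 577 CPM in enzyme-poor spots against 132, 327, 444 and 512 in other spots. The background was higher in enzyme-poor spots too, and its part in these low levels was not tested. Gut epithelium genes, at 16.9, 257, 346 and 364 against 23.9, 144, 389.8 and 419.6, and skeletal muscle genes, at 5.07, 93.2, 75.9 and 139.6 against 6.3, 63.1, 55.5 and 86.3, had no common direction. Islet genes were at 179, 492, 338 and 443 against 1361, 821, 1470 and 582, and with other spots held to the same exclusions the ratio was 1.25, 1.51, 1.01 and 1.12. The lower islet level was thus present only against spots with insulin counts.

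Across 4 equal bins of the enzyme share, ordered from low to high within a section, over spots that met the exclusions, the Reg protein list moved in one direction from bin to bin in all 4 sections and the macrophage list in 3. In Ehmt2 fl/fl 1 the Reg proteins stood at 4537, 10975, 16601 and 32623 CPM from the lowest to the highest bin, and the macrophage genes at 3790, 3290, 2526 and 1965. In Ehmt2 fl/fl 2 the macrophage genes stood at 2411, 1770, 1530 and 1320, and in Ehmt2+/+ 2 at 837, 575, 562 and 435. Macrophage levels declined with every step in these 3 sections. In Ehmt2+/+ 1 they stood at 571, 401, 425 and 401, with a difference only between the lowest bin and the rest. Lymphoid genes in Ehmt2 fl/fl 1 stood at 1460, 697, 636 and 491, so the largest step separated the enzyme-poor spots from the next bin. Median UMIs per spot also differed by bin, at 770, 853, 956 and 1116 in Ehmt2 fl/fl 1, and their part in these levels was not tested.

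**Figure D4:**
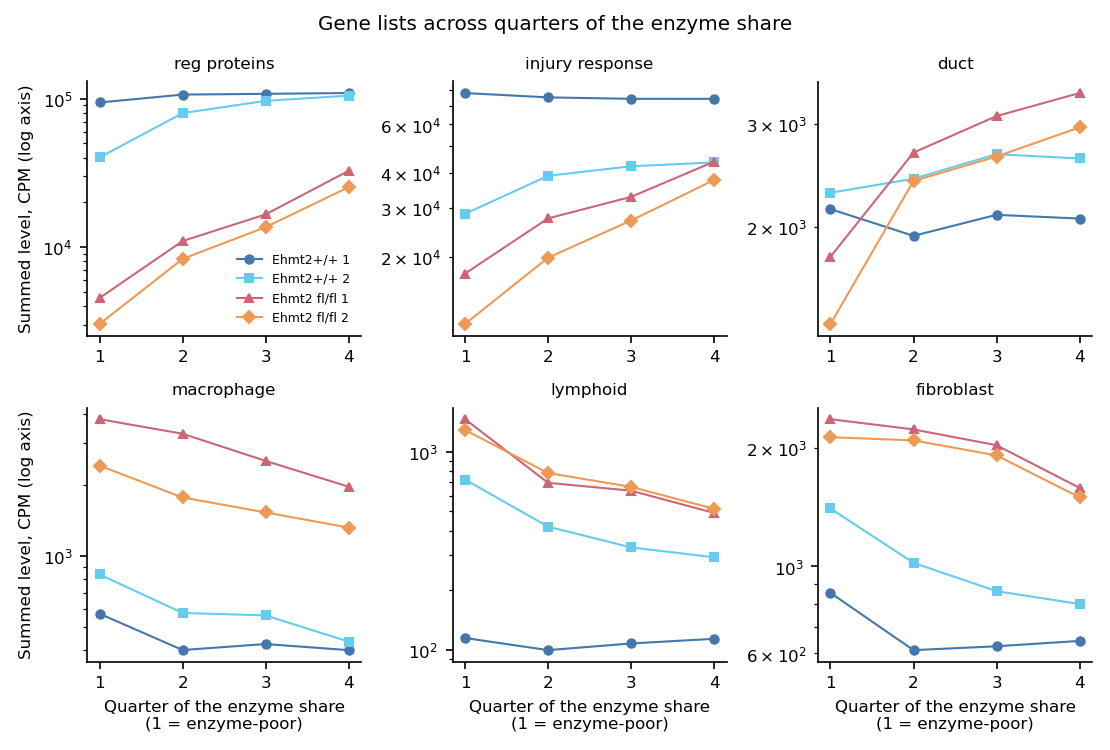
Summed levels of 6 gene lists (CPM, log axis) by bin of the enzyme share, 25% of spots each, within each section, among spots that met the exclusions, with 1 line per section. Reg protein, injury and duct genes were lower and macrophage, lymphoid and fibroblast genes higher in bin 1 than in bin 4 of both Ehmt2 fl/fl sections, while Ehmt2+/+ 1 was nearly flat in most lists.

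Between genotypes, the enzyme-poor spots themselves were compared with 2 sections on each side. Of 15834 genes, edgeR called 9 (0.0568%), with 7 higher in Ehmt2 fl/fl (0.0442%) and 2 lower (0.0126%). All 7 genes called higher lie on the Y chromosome. *Gm21310* had 0, 1, 307 and 726 UMIs. *Gm20825* had 0, 0, 103 and 187 UMIs and *Gm20914* 0, 3, 161 and 353. These genes belong to families of near-identical copies, so reads may be shared among them. The Y-linked *Ddx3y*, *Eif2s3y* and *Uty* were at 0 in the enzyme-poor spots of both Ehmt2+/+ sections and had UMIs in both fl/fl sections, and *Xist* was at 0 throughout. Y-linked counts thus separated the genotypes, and sex and genotype cannot be told apart here. The position on the slide was also shared within a genotype, so area and genotype cannot be told apart, while each of the 2 slides held 1 section of each.

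The 2 genes called lower were *Rbpjl* and *Sel1l*, which encodes an adaptor of protein degradation at the endoplasmic reticulum. *Rbpjl* had 169, 45, 5 and 0 UMIs (log2 difference -5.90, SE 1.11, edgeR adjusted p = 0.00931). *Sel1l* had 93, 15, 1 and 3 UMIs (log2 difference -5.32, SE 1.01, edgeR adjusted p = 0.00931). Both Ehmt2 fl/fl sections were below both Ehmt2+/+ sections, which themselves differed several-fold. Neither was called with plain library sizes. With the slide as a block, added after seeing the data, edgeR called 20 genes higher and 59 lower. Leaving out 1 section in turn, with the lone section of that genotype assumed to vary like the pair of the other, moved the counts, and the cause was not tested. Without Ehmt2+/+ 2 the fit called 4799 genes higher and 3422 lower, without Ehmt2+/+ 1 it called 24 and 43, without Ehmt2 fl/fl 1 it called 0 and 0, and without Ehmt2 fl/fl 2 it called 1 and 0.

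List levels differed in size between genotypes, but 2 sections against 2 cannot give a two-sided exact permutation p below 0.33. Macrophage genes in enzyme-poor spots stood at 704 ± 188 (SD, n = 2) in Ehmt2+/+ and 3101 ± 975 (SD, n = 2) in Ehmt2 fl/fl CPM, with both fl/fl sections above both Ehmt2+/+ sections. Of the 26 lists, 20 did not overlap between genotypes, 12 higher and 8 lower in Ehmt2 fl/fl. Lymphoid genes stood at 419 ± 431 (SD, n = 2) in Ehmt2+/+ and 1373 ± 122 (SD, n = 2) in Ehmt2 fl/fl, acute phase genes at 557 ± 289 (SD, n = 2) in Ehmt2+/+ and 2106 ± 439 (SD, n = 2) in Ehmt2 fl/fl, and fibroblast genes at 1131 ± 388 (SD, n = 2) in Ehmt2+/+ and 2255 ± 169 (SD, n = 2) in Ehmt2 fl/fl. Reg proteins stood at 67157 ± 38188 (SD, n = 2) in Ehmt2+/+ and 3785 ± 1064 (SD, n = 2) in Ehmt2 fl/fl, and granule genes at 37327 ± 25212 (SD, n = 2) in Ehmt2+/+ and 2922 ± 738 (SD, n = 2) in Ehmt2 fl/fl. In each of these 6 lists the genotypes did not overlap, and the exact permutation p was 0.33. For comparison, 32.8% of all genes fitted had both fl/fl sections above both Ehmt2+/+ sections by CPM, and 8.29% had both below. Of the genes themselves, edgeR called 0 of 12 macrophage, 0 of 19 lymphoid and 0 of 7 Reg genes, with 5 higher, 3 higher and 6 lower at an unadjusted p below 0.05, a level that 181 of the 15834 genes reached as higher and 641 as lower. DESeq2 called 1 macrophage gene higher, 0 lymphoid genes and 6 Reg genes lower. The enzyme share was lower in both fl/fl sections, and the olfactory receptor background was low in Ehmt2+/+ 1 alone, at 1093, 18838, 17165 and 23388 CPM in the 4 sections. Their part in these levels was not tested.

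The gap between enzyme-poor and other spots of a section differed between genotypes for some genes, by an interaction term with the section as a block. Of 19912 genes, edgeR called 31 (0.156%), 25 with a lower value in Ehmt2 fl/fl (0.126%) and 6 with a higher one (0.0301%). The 25 included 4 of 7 Reg genes, 4 of 15 granule and receptor genes and 4 of 27 injury response genes, and medians of the 3 lists were -0.99, -0.04 and -0.29 beside 0.15 over all genes. The remaining lists had 0 genes called, except 1 each of the amino acid (*Asns*) and gut (*Cldn18*) lists. The enzyme share that divided the classes also had a larger relative gap in fl/fl, with medians of 38.4, 27.2, 5.97 and 4.37% in enzyme-poor and 43.5, 37.2, 16.3 and 14.7% in other spots, and its part in these differences was not tested. Here too the spots were divided by their own counts. The adjusted p values below therefore describe gaps between these classes, and no effect of genotype is read from them. With plain library sizes 23 of the 25 were called again. DESeq2 called 0 in either direction, with 127 lower and 19 higher at an unadjusted p below 0.05, beside 197 and 887 by edgeR.

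Only *Nupr1*, *Spink1*, *Reg3a* and *Erp27* stayed called with plain library sizes and after each section was left out. For *Nupr1* the log2 ratio of CPM in enzyme-poor to other spots was 0.23, -0.60, -1.90 and -2.37 in the 4 sections (log2 difference -1.58, SE 0.21, edgeR adjusted p = 1.47e-09). For *Spink1* it was 0.02, -0.74, -1.91 and -2.14 (log2 difference -1.29, SE 0.20, edgeR adjusted p = 1.77e-06). For *Reg3a* it was -0.16, -0.96, -1.95 and -2.37 (log2 difference -1.20, SE 0.21, edgeR adjusted p = 7.02e-05). For *Erp27*, an endoplasmic reticulum protein of acinar cells, it was -0.16, -0.90, -1.96 and -2.04 (log2 difference -1.11, SE 0.20, edgeR adjusted p = 0.000107). In each, both fl/fl sections had a more negative ratio than both Ehmt2+/+ sections. The 2 Ehmt2+/+ sections also differed from each other, with the smaller gap of each of the 4 genes in Ehmt2+/+ 1.

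By CPM some epithelial genes were higher in the enzyme-poor spots of Ehmt2+/+ and lower in those of Ehmt2 fl/fl. *Tspan8*, a tetraspanin of gut and pancreatic epithelium, had log2 ratios of 0.90, 1.39, -0.55 and -1.05 (log2 difference -1.66, SE 0.34, edgeR adjusted p = 0.00204). *Sprr1a*, a cornified-envelope protein induced by injury, had 0.49, 0.88, -1.40 and -0.84 (log2 difference -1.40, SE 0.32, edgeR adjusted p = 0.0163). *Ier3*, an immediate early stress gene chosen after its values were seen, had 0.64, 0.84, -0.70 and -1.11 (log2 difference -1.26, SE 0.22, edgeR adjusted p = 7.02e-05). In CPM the signs were opposite between genotypes in all 4 sections, and on the TMM scale only *Tspan8* kept this, since *Sprr1a* and *Ier3* in Ehmt2+/+ 1 were at -0.22 and -0.072. *Cldn18*, a tight junction protein, had -0.76, 1.94, -0.98 and -1.48 (log2 difference -2.29, SE 0.51, edgeR adjusted p = 0.0122), where Ehmt2+/+ 2 alone was positive. Without that section the difference was 0.0547 (edgeR adjusted p = 0.986), and the call was also lost without either fl/fl section. In the enzyme-poor spots of Ehmt2+/+ 1 *Cldn18* was at 1.69 CPM, so its ratio there rests on very few UMIs. The keratin *Krt20* had 0.15, -0.95, -2.81 and -2.39 (log2 difference -1.92, SE 0.48, edgeR adjusted p = 0.0491). *Krt20* was at 9.99 and 13.2 CPM in the enzyme-poor spots of Ehmt2 fl/fl 1 and 2, likewise few UMIs.

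*Slpi* was higher in the enzyme-poor spots of all 4 sections, and less so in fl/fl, with log2 ratios of 1.84, 1.72, 0.78 and 0.48 (log2 difference -0.79, SE 0.20, edgeR adjusted p = 0.0452). The difference was 0.0054 in spots of at least 1000 UMIs, and the call was lost without any 1 of the sections, with edgeR adjusted p from 0.0588 to 1. The 6 genes with a higher value in fl/fl were *Rims4*, *Tent5c*, *Pdk1*, *Derl1*, *Dhrs3* and *Bst2*, the last of them named after its value was seen. *Rims4*, of the synaptic release family, had -0.57, -0.95, 0.26 and 0.77 (log2 difference 1.69, SE 0.39, edgeR adjusted p = 0.0151), and *Tent5c*, a poly(A) polymerase of secretory cells, had -0.60, -1.05, 0.08 and 0.28 (log2 difference 1.36, SE 0.31, edgeR adjusted p = 0.0122). Only *Rims4* was called again with plain library sizes. Without Ehmt2+/+ 1, the section that stood apart in depth, 17 genes were called lower and 15 higher, of which 12 and 4 were among the 31.

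**Figure D5:**
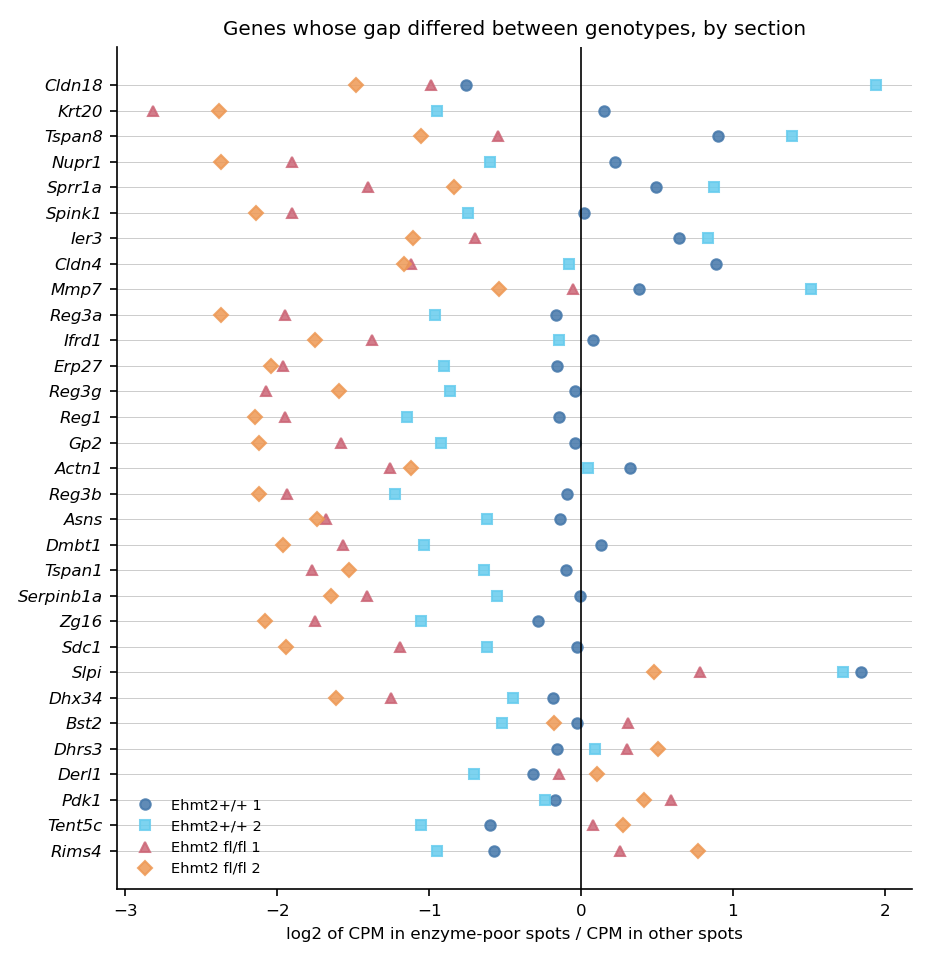
Log2 of the CPM ratio of enzyme-poor to other spots for the 31 genes called in the difference between genotypes, with 1 symbol per section and genes ordered by the fitted difference. For *Nupr1*, *Spink1*, *Reg3a* and *Erp27* both Ehmt2 fl/fl symbols lie left of both Ehmt2+/+ symbols, and for *Tspan8*, *Sprr1a* and *Ier3* the genotypes lie on opposite sides of 0, which on the TMM scale holds for *Tspan8* alone.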

How the data were processed

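Visium CytAssist sections of formalin-fixed mouse pancreas were analysed. The authors processed the reads with Space Ranger 2.0.1 (version per the file headers; build mm10 per the submitters' processing notes), and the deposited matrices hold raw UMI counts per feature and spot, for spots on and off the tissue. Their later normalization was not used here. Per the study's methods, reads were assigned with the mm10-2020-A reference and version 1.0 of the Visium mouse probe set. Gene coordinates were read here from GENCODE M21 on the same build. Files of tissue marks do not name barcodes and could not be joined to spots.

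Of 32589 features, 304 deprecated ones were left out. UMIs were summed per section and spot class without 37 digestive enzyme and 4 exclusion genes, and tested with edgeR 4.0.16 (TMM, filterByExpr with a minimum count of 10, quasi-likelihood test, Benjamini-Hochberg threshold 0.05). The class comparison and the interaction had the section as a block, which pairs sums of the same mouse, and the genotype comparison of 2 against 2 sections had none. DESeq2 1.42.0, other scalings, filters, spot choices and the removal of each section were alternatives. The main edgeR fit of each comparison was also run on simulated sums with known changes. Those sums were not divided by the enzyme counts of spots, so they cannot show how the calls hold under this rule. DESeq2 and the alternative settings were not simulated. Spots are not replicates, exact (Clopper-Pearson) 95% intervals cover counting error only, and totals are given in ranges and medians per spot. No doublet caller was run, as spots hold several cells.

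The enzyme-poor spots and the gene lists were chosen with earlier results of these data known. Genes were named as follows: *Ehmt2* and the rule genes, up to 4 of the most abundant genes of each list, up to 10 genes per direction with the largest differences between classes among called genes of at least 50 CPM with 1 direction in all 4 sections, up to 5 per direction in the genotype results, and sex-linked genes. Exceptions are stated where they occur.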

Additional observations from a re-analysis of the deposited data

Results flagged for a closer look

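These results were picked out because the gap between enzyme-poor and other spots differed between genotypes by the edgeR interaction test, and each value is the log2 difference of the gap, Ehmt2 fl/fl minus Ehmt2+/+. Among granule genes these were *Spink1* -1.29, *Erp27* -1.11, *Gp2* -1.0 and *Zg16* -0.88. Among Reg genes they were *Reg3a* -1.20, *Reg1* -1.03 and *Reg3b* -0.99. Among injury, metabolic and epithelial genes they were *Nupr1* -1.58, *Sprr1a* -1.40, *Ier3* -1.26, *Asns* -0.96, *Cldn18* -2.29, *Krt20* -1.92, *Tspan8* -1.66 and *Slpi* -0.79. Genes with a positive value were *Rims4* 1.69, *Tent5c* 1.36, *Pdk1* 1.08, *Derl1* 0.86, *Dhrs3* 0.83 and *Bst2* 0.72. DESeq2 called none of them. Without Ehmt2+/+ 2 *Cldn18* was at 0.055, and in spots of at least 1000 UMIs *Slpi* was at 0.0054.

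By CPM, the summed acute phase genes were higher in the enzyme-poor spots of both Ehmt2+/+ sections and lower in those of both Ehmt2 fl/fl sections, with a difference of mean log2 ratios of -0.57. The immediate early genes did the same, with -0.37. For both lists the difference was not tested, and on the TMM scale Ehmt2+/+ 1 was lower for both lists and Ehmt2+/+ 2 for the immediate early genes. With enzymes in the totals the immediate early sum was higher in all 4 sections and the acute phase sum higher in Ehmt2 fl/fl 1. By CPM 10 and 8 of 13 acute phase genes were higher in the fl/fl sections, while the sum was lower. Over all genes fitted, 21.4% were higher and 4.55% lower in all 4 sections by CPM, so these counts are not read as particular to the list.

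Features marked as deprecated in the probe set, left out of all comparisons, took a mean of 0.844% of UMIs in the enzyme-poor spots of Ehmt2 fl/fl. Both of those sections, at 0.798% and 0.89%, were above both Ehmt2+/+ sections, at 0.506% and 0.637%. These are shares of all UMIs, with the digestive enzymes included. The enzymes took 59.7 and 37.1% of UMIs in enzyme-poor spots of Ehmt2+/+ 1 and 2. In Ehmt2 fl/fl 1 and 2 they took 7.65 and 5.79%. The order of the genotypes is thus tied to the enzyme share, and no difference between genotypes is read from it.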

How the results depend on the processing

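Every count of called genes moved with at least 1 setting, and counts are given as higher and lower. For enzyme-poor against other spots (138 and 2271 with TMM), they were 19 and 492 by DESeq2, 1514 and 241 without TMM, 9442 and 58 with enzymes in the library sizes, 90 and 1455 for the lowest 10%, 42 and 1489 for spots of at least 1000 UMIs, 411 and 2663 without exclusions and 254 and 2326 against other spots that met them. Leaving out 1 section gave 23 to 267 higher and 1228 to 1929 lower. Without the pairing of classes by section (no replicate block) they were 0 and 0. Sums of spots thinned to 500 UMIs, chosen after seeing the data, gave 97 and 1129.

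Between genotypes (7 and 2), they were 18 and 163 by DESeq2, 3 and 0 without TMM, 3 and 0 with enzymes in the library sizes, 8 and 14 without a filter, 0 and 0 for the lowest 10%, 0 and 0 at 1000 UMIs, 9 and 3 without exclusions and 9 and 5 with the rule on thinned spots. Leaving out 1 section gave 0 to 4799 higher and 0 to 3422 lower. Added after seeing the data, thinned sums gave 18 and 42 and the slide as a block 20 and 59. A single score limit could not be fitted, since it left 0 spots in Ehmt2+/+ 1.

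For the difference in the gap (6 and 25), they were 0 and 0 by DESeq2, 1 and 48 without TMM, 0 and 66 with enzymes in the library sizes, 9 and 29 without a filter, 14 and 19 for the lowest 10%, 0 and 10 at 1000 UMIs, 14 and 41 without exclusions, 4 and 7 with the rule on thinned spots, 9 and 22 against spots that met the exclusions and 0 and 8 with thinned sums. Leaving out 1 section gave 1 to 200 higher and 5 to 32 lower. The causes were not tested.

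Of the log2 differences of genes named between the classes, 12 changed sign. With enzymes in the library sizes *Col1a2* was at 0.47, *Ehmt2* 0.017, *Hspa5* 0.093, *Il1rn* 0.15, *Krt7* 0.14 and *Ptf1a* 0.18. *Col1a2* was also at 0.16 without TMM, 0.31 without exclusions, 0.14 against spots that met them and 0.025 with the rule on thinned spots. *Ptprc* was at -0.041 at 1000 UMIs and *Cd68*, with sections left out in turn, ran from -0.047 without Ehmt2 fl/fl 1 to 0.29 without Ehmt2+/+ 1. In the difference of the gap, *Slpi* was at 0.0054 at 1000 UMIs and *Cldn18* ran from -2.85 without Ehmt2+/+ 1 to 0.055 without Ehmt2+/+ 2. Of the remaining values in that difference, 139 kept direction and side of the threshold and 153 kept only direction. Enzyme-poor spots were shallower than other spots in every section, and each genotype had 2 sections.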

Other observations

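In spots thinned to 500 UMIs, enzyme-poor spots held a median of 181, 283, 429 and 450 genes in the 4 sections, and other spots 159, 196, 362 and 383. The enzyme-poor spots held more genes per 500 UMIs in all 4. The 500 UMIs included the digestive enzymes, and the rule chose spots with a smaller share of these. The direction is thus tied to the rule.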
